A study of Mus musculus with 24 samples.

Results

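The AP-1, EGR and immediate-early genes described here are 10 genes, *Fos*, *Fosb*, *Fosl2*, *Jun*, *Junb*, *Atf3*, *Egr1*, *Egr2*, *Ier2* and *Ier3*, found by their symbol among the 56691 genes of each table, 1 row per gene in both. RNA-seq covered 24 libraries, of which 12 came from the mouse macrophage cell line RAW264.7 and 12 from bone marrow-derived macrophages (BMDMs). In either cell type, wild-type (WT) and *Olfml3* knockout (KO) cells received PBS or 100 ng/mL lipopolysaccharide (LPS), the bacterial endotoxin, over 4 h, with 3 libraries for each of the resulting 4 groups. The RAW264.7 knockout was made by CRISPR-Cas9 with a lentiviral guide RNA and grown from single-cell clones. The BMDMs came from male C57BL/6 mice aged 8 weeks, wild type or carrying a global CRISPR-Cas9 knockout of *Olfml3*, and were grown with supernatant of L929 cells. The study calls the libraries of a group biological replicates. No label says whether the 3 were separate cultures or animals, so p-values measure only the spread between these libraries, which may be technical.

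Immediate-early genes are transcribed within minutes of a stimulus without new protein synthesis. Lipopolysaccharide reaches them through TLR4 and the MAP kinases ERK, JNK and p38, which act on serum response factor with its ternary complex factors, on CREB and ATF proteins and on JUN itself. AP-1 is a dimer of a JUN protein (*Jun*, *Junb*, *Jund*) with a FOS protein (*Fos*, *Fosb*, *Fosl1*, *Fosl2*) or an ATF protein, and it binds promoters and enhancers of cytokine, protease and growth genes. In macrophages many of these transcripts rise and decay within a few hours of LPS.

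RAW264.7 libraries held 11638273 to 16478616 counts, and BMDM libraries 17121240 to 22873094. The summed level of 7 macrophage markers was 829 to 2945 FPKM (fragments per kilobase of exon, scaled to the library total) in RAW264.7 and 11847 to 17664 in BMDMs, and *Mertk* alone was at 0 in RAW264.7. Neutrophil, T and NK cell, B cell, fibroblast and erythroid markers summed to at most 0.28 FPKM per list in RAW264.7. In BMDMs neutrophil markers summed to 4.58 to 7.99 FPKM and T and NK cell markers to 3.30 to 8.58, fibroblast markers to 0.35 to 1.38, and B cell and erythroid markers to at most 0.06. Only 2 of the 5 neutrophil genes and 1 of the 5 T and NK cell genes reached a mean of 1 FPKM in each BMDM group. Of these 5 T and NK cell genes, 3 or 4 were at 0 in every library of a group. In the BMDMs labelled knockout *Olfml3* was at 0.03, 0.01 and 0.01 FPKM with PBS against 0.61, 0.53 and 0.65 in wild type. In RAW264.7 it went against the label, with 0.65, 1.01 and 1.19 FPKM in the PBS libraries labelled knockout against 0.19, 0.15 and 0.15 in wild type, and 18.9, 18.8 and 18.3 with LPS against 0.13, 0.13 and 0.29. Every RAW264.7 direction below is therefore that of the libraries labelled knockout. Labels here are those of the sample titles, which the genotype tag contradicts in 12 of 24 samples. Replicate 1 of the RAW264.7 knockout-labelled PBS libraries stood apart. Its mean correlation across 11336 genes was 0.936 with the other libraries of its group and 0.956 with the wild-type PBS libraries, whereas those correlated at 0.960 and 0.957 within the group and at 0.903 and 0.897 with wild type.

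RefSeq promoter windows, from 250 bases before to 50 after a start site on GRCm38.p6, were at hand for 8 of the 10 genes, and not for *Egr1* and *Ier2*. Those of *Fos*, *Jun*, *Ier3* and *Egr2* are shown as examples of genes that differed between cell types or genotypes, chosen with values known. They are not the only such genes, since *Atf3* was higher in every BMDM group than in any RAW264.7 group. Capitals mark matches, on either strand, to a CArG box (the core of the serum response element), the CRE TGACGTCA or its half-site TGACG, the AP-1 site TGACTCA or TGAGTCA, the Jun-type AP-1 site TGACATCA, the EGR site GCGNGGGCG, the TATA box TATAAA and a kappaB site. The half-site lies within the whole CRE, and the half-site, the Jun-type site and the kappaB site were added to the search after values had been seen.

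Fos, chr12:85473640-85473939, plus strand: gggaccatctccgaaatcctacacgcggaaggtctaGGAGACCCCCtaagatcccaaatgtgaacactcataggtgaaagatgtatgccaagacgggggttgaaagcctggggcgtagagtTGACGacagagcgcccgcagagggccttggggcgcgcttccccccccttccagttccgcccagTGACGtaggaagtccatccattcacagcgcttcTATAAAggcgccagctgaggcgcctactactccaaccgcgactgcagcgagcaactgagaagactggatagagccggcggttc
Jun, chr4:95052173-95052472, minus strand: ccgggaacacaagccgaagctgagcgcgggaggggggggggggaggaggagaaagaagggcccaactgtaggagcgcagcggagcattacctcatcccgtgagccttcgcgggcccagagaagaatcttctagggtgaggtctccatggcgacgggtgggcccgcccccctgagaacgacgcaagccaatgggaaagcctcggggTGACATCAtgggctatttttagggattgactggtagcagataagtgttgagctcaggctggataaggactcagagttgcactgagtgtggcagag
Ier3, chr17:35821463-35821762, plus strand: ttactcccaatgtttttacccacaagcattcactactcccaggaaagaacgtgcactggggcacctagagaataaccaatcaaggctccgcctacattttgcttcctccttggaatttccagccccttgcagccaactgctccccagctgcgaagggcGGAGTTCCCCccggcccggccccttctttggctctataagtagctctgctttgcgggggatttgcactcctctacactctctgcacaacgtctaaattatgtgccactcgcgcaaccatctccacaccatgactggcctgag
Egr2, chr10:67537619-67537918, plus strand, 1 of 5 windows: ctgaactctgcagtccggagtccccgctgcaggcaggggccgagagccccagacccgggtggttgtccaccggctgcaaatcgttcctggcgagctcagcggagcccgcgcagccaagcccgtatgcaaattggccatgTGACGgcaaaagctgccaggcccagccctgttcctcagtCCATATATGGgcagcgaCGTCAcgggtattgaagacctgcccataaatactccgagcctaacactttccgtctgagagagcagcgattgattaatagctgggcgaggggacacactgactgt

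Positions are counted from the start site. In *Fos* the capitals are a kappaB match at -214, CRE half-sites at -129 and -66 and the TATA box at -33. In *Jun* they are the Jun-type site at -45, and in *Ier3* a kappaB match at -92. In *Egr2* a CArG box at -72 lies between CRE half-sites at -111 and -55. Among all 32851 windows of the same length a CArG box was in 1.63%, a whole CRE in 1.79%, a CRE half-site in 20.8%, an AP-1 site in 5.2%, the Jun-type site in 3.62%, an EGR site in 5.55%, a TATA box in 13.6% and a kappaB site in 8.46%. Of the windows not shown, that of *Fosb* held a CRE half-site at -60, an EGR site at -50 and a kappaB match at -188. That of *Fosl2* held an EGR site at -79 and overlapping kappaB matches at -182 and -181, that of *Junb* a CRE half-site at -106 and a TATA box at +1, and that of *Atf3* a CRE half-site at -7. Of the other *Egr2* windows, 1 held overlapping kappaB matches at -117 and -116, and the rest a CArG box, which is the same one, with the same CRE half-sites, in those that overlap the window shown. These are matches of letters, not measured binding, and sequence outside the windows was not searched, so a site missing here may lie farther away.

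The levels are given first over the 8 groups, as a description, since no test was run across cell types. *Ier3*, whose product modulates survival and ERK signalling, had the widest range of group means, from 8.08 FPKM in RAW264.7 labelled knockout with PBS to 553 FPKM in wild-type RAW264.7 with LPS. *Atf3*, an LPS-induced ATF protein that restrains inflammatory genes, was highest in BMDMs with LPS, at 267 FPKM ± 4.99 (SD, n = 3) in wild type, and already at 135 FPKM ± 0.516 with PBS, above every RAW264.7 group. *Jun* was highest in resting BMDMs, at 48.7 FPKM ± 2.03 in wild type and 49.1 ± 0.670 in knockout, and these groups overlapped. *Junb*, the JUN protein that prevails in activated macrophages, was highest in wild-type RAW264.7 with LPS, at 194 FPKM ± 5.22, followed without overlap by the knockout-labelled cells at 181 ± 3.54.

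*Fos* led in resting BMDMs, where the wild-type mean of 29.6 FPKM ± 1.97 overlapped the knockout mean of 26.2 ± 1.58, and was lowest in RAW264.7 labelled knockout with LPS, at 3.23 ± 0.793. *Egr1*, a zinc finger factor and itself a serum response gene, was highest in RAW264.7 labelled knockout with LPS, at 26.9 FPKM ± 0.114, next to wild type at 22.5 ± 0.400, and lowest in resting wild-type RAW264.7 at 1.42 ± 0.243. *Egr2*, its relative tied to macrophage differentiation, was highest in resting BMDMs at 9.11 FPKM ± 0.795 in wild type and lowest in resting wild-type RAW264.7 at 0.243 ± 0.136. *Ier2*, a small nuclear protein gene, ran from 12.8 FPKM ± 0.782 in resting wild-type BMDMs to 66.4 ± 1.67 in wild-type RAW264.7 with LPS. *Fosl2* stayed within 2.49 and 6.50 FPKM over the 8 groups. *Fosb* was near the detection limit, at 0.023 to 0.36 FPKM, with 0 to 21 counts in a RAW264.7 library and 10 to 54 in a BMDM library. Its 1 library without a count, RAW264.7 labelled knockout with LPS, allows a level of up to 0.0413 FPKM at 3 counts, which covers counting error only.

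**Figure D1:**
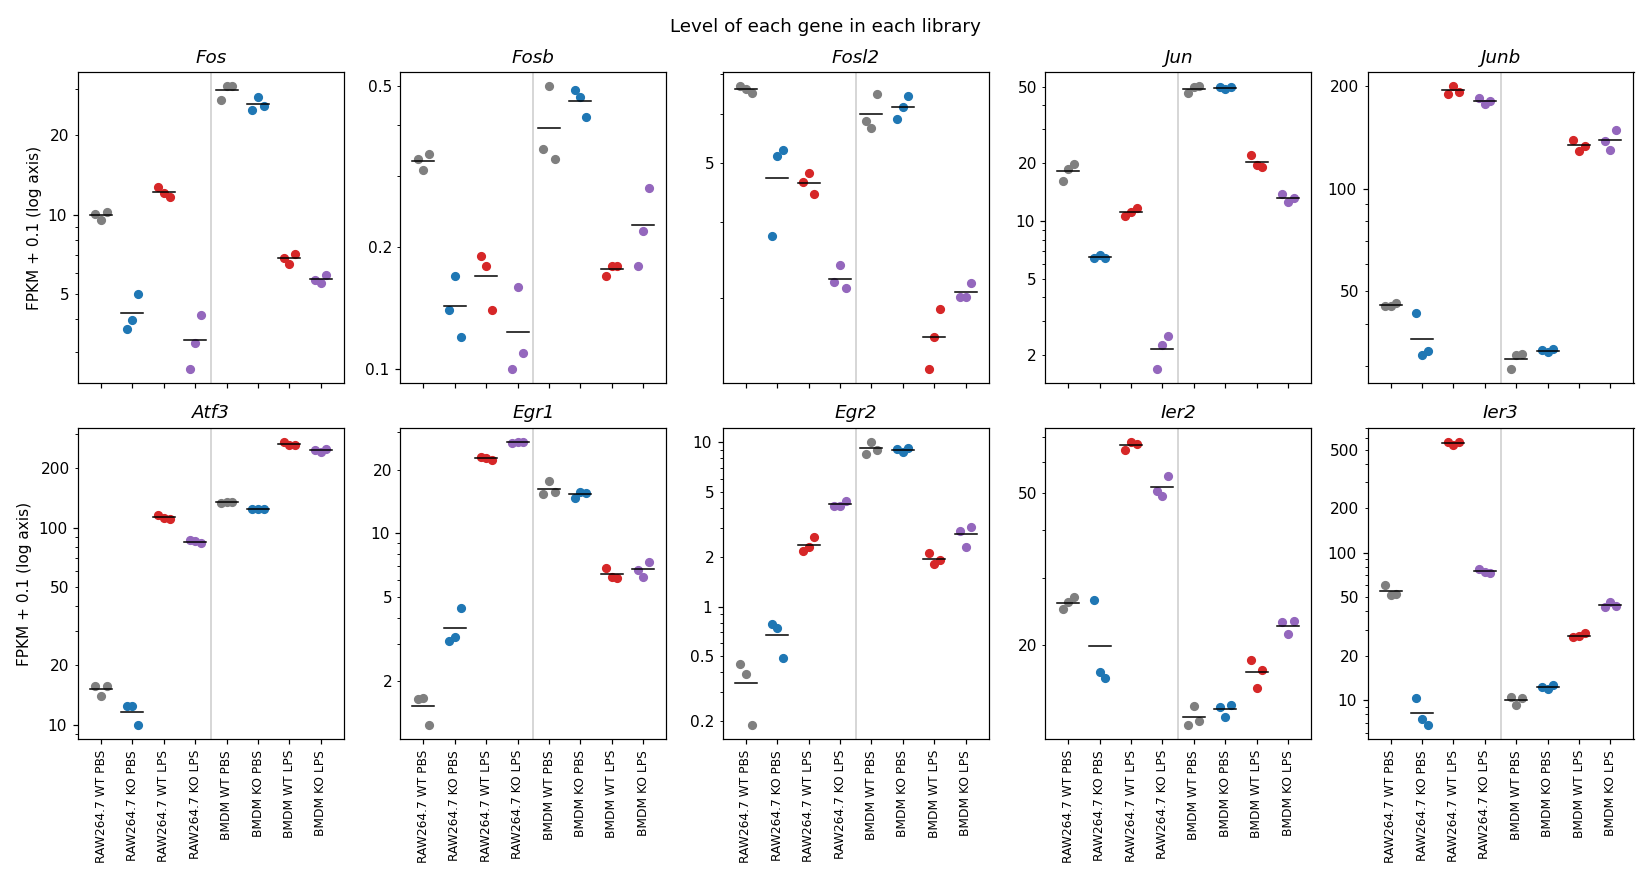
Level of the 10 genes in each library, as FPKM + 0.1 on a log axis (points, 3 per group, bars at the group mean), with RAW264.7 left and BMDMs right of the grey line in each panel. *Jun* and *Egr2* were highest in resting BMDMs, *Junb*, *Ier2* and *Ier3* in wild-type RAW264.7 with LPS, and *Ier3* in RAW264.7 separated the genotypes by 6.80-fold with PBS and 7.39-fold with LPS.

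The first comparison asked which of these genes were still above or below the PBS level after 4 h of LPS. In wild-type RAW264.7 cells 6 of the 10 genes rose, *Egr1*, *Ier3*, *Atf3*, *Egr2*, *Junb* and *Ier2*, and 2 fell, *Jun* and *Fosb*. *Fos*, the classical immediate-early gene, and *Fosl2* did not pass the thresholds. A gene was called changed at an adjusted p under 0.05 in limma with a fold change of at least 1.5, and 18.3% of all 26740 genes tested passed, 5.8% upward and 12.5% downward. The 3 libraries of each group did not overlap for 10 of 10 genes, against 38.8% of all genes.

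Among the factors, *Egr1* went from 1.55, 1.57 and 1.14 FPKM with PBS to 22.9, 22.5 and 22.1 with LPS, a 15.01-fold rise (log2 fold change 3.91, SE 0.15, adjusted p = 7.34e-08). Its LPS libraries lay close together and far above all PBS libraries. *Egr2* went from 0.35, 0.29 and 0.09 FPKM to 2.09, 2.22 and 2.55 (2.89, SE 0.30, adjusted p = 5.70e-05), a rise from a level with few counts. *Junb* went from 44.9, 44.9 and 46.0 FPKM to 190, 200.3 and 193 (4.29-fold, log2 2.10, SE 0.10, adjusted p = 3.79e-07).

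*Atf3* went from 15.6, 13.9 and 15.5 FPKM to 116, 112 and 111 (7.51-fold, log2 2.91, SE 0.10, adjusted p = 2.94e-08). *Ier3* went from 60.6, 51.5 and 52.3 FPKM to 560, 535 and 564 (10.1-fold, log2 3.34, SE 0.14, adjusted p = 1.38e-07), the highest level of any of the 10 genes. *Ier2* went from 24.8, 25.8 and 26.6 FPKM to 64.5, 67.8 and 66.8 (log2 1.36, SE 0.16, adjusted p = 0.000126). In these 3 genes each LPS library was above each PBS library.

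*Jun* was the exception within the JUN family. Its libraries read 16.1, 18.6 and 19.6 FPKM with PBS and 10.5, 11.0 and 11.5 with LPS, and it fell by 0.71 on the log2 scale (SE 0.14, adjusted p = 0.00434). Median-ratio scaling centres the genes, and the median difference between the scales (FPKM minus median-ratio, over genes with a group mean of 1 FPKM or more) was -0.24. On it *Jun* was at a log2 fold change of -0.47 (adjusted p = 0.0372), short of 1.5-fold. The share of upward calls among all genes went from 31.7% to 49.6%. *Fos* read 9.93, 9.46 and 10.1 FPKM with PBS and 12.7, 11.99 and 11.5 with LPS (log2 0.29, SE 0.17, adjusted p = 0.308). The libraries did not overlap, but the difference was under 1.5-fold. With median-ratio scaling *Fos* was at 0.53 (adjusted p = 0.0511 in limma). On counts it was at 0.52 with edgeR (adjusted p = 0.0104) and 0.54 with DESeq2 (adjusted p = 0.00232), still under 1.5-fold. *Fosl2* went from 6.58, 6.51 and 6.41 FPKM to 4.55, 4.70 and 4.34 (log2 -0.51, SE 0.12, adjusted p = 0.0101), under the 1.5-fold threshold. The fall of *Fosb*, from 0.23, 0.21 and 0.24 FPKM to 0.09, 0.08 and 0.04, rests on 4 to 21 counts per library and was lost with a pseudocount of 0.01 (adjusted p = 0.12) and with DESeq2 (adjusted p = 0.0567).

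RAW264.7 libraries labelled knockout gave the same 6 rises, and *Jun* fell. Here 7 genes were called, 6 upward and 1 downward, where 22.1% of all genes passed, 7.45% upward and 14.6% downward. The treatments did not overlap for 8 of 10 genes, against 35.5% of all genes. With median-ratio scaling the share of upward calls among all genes was 51.7% in place of 33.8%, and the median difference between the scales was -0.26. *Egr1* went from 3.00, 3.12 and 4.33 FPKM to 26.8, 27.0 and 26.8 (7.63-fold, log2 2.93, SE 0.15, adjusted p = 3.62e-07). *Ier3* went from 10.2, 7.39 and 6.67 FPKM to 77.9, 74.3 and 72.2 (9.30-fold, log2 3.22, SE 0.14, adjusted p = 1.22e-07), from a lower base. *Jun* went from 6.34, 6.53 and 6.35 FPKM to 1.59, 2.17 and 2.43 (3.05-fold lower, log2 -1.61, SE 0.14, adjusted p = 1.50e-05), the lowest *Jun* level of the 8 groups.

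*Junb* rose from 42.8, 32.1 and 33.1 FPKM to 185, 178 and 181 (log2 2.34, SE 0.10, adjusted p = 1.27e-07). *Ier2* rose from 26.1, 16.9 and 16.3 FPKM to 50.5, 49.0 and 55.0 (log2 1.41, SE 0.16, adjusted p = 8.24e-05). *Atf3* rose from 12.3, 12.4 and 9.86 FPKM to 86.2, 85.7 and 83.1 (log2 2.88, SE 0.10, adjusted p = 2.34e-08), and *Egr2* from 0.68, 0.64 and 0.39 to 4.00, 4.02 and 4.28 (2.68, SE 0.30, adjusted p = 7.77e-05). In *Junb* and *Ier2* the highest PBS library was replicate 1, the one that stood apart. *Fos*, at 3.56, 3.87 and 4.90 FPKM with PBS and 2.48, 3.16 and 4.06 with LPS, overlapped between treatments (log2 -0.35, SE 0.17, adjusted p = 0.174). Without replicate 1 of the PBS group *Fosl2* passed as well (log2 -0.69, adjusted p = 2.85e-05), and 8 genes were called.

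In BMDMs *Egr1* and *Egr2* fell with LPS instead of rising, and *Fos* fell with them. In wild-type BMDMs 3 of the 10 genes rose with LPS, *Junb*, *Ier3* and *Atf3*, and 6 fell, *Egr2*, *Fos*, *Egr1*, *Jun*, *Fosl2* and *Fosb*, where 40.4% of all 26973 genes passed, 7.94% upward and 32.5% downward. The libraries of the treatments did not overlap for 10 of 10 genes, against 52.2% of all genes. Many genes fell on the FPKM scale in BMDMs, and the genes with a group mean of 1 FPKM or more had a median log2 change of -0.76 in wild type and -0.65 in knockout. The median difference between the scales (FPKM minus median-ratio) was -0.79 and -0.68, and with median-ratio scaling the share of upward calls among all genes went from 19.6% to 47.9% in wild type and from 20.6% to 46.8% in knockout. With it 7 of the 10 genes were called in wild type, and 8435 over all genes. *Fos*, *Fosb* and *Egr2* remained called downward, *Jun* (log2 -0.48), *Egr1* (-0.54) and *Fosl2* (-0.44) stayed below 0 but within 1.5-fold, and *Ier2* passed upward (1.19, adjusted p = 4.34e-07).

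*Fos* went from 27.3, 30.7 and 30.7 FPKM to 6.74, 6.40 and 6.99 in wild-type BMDMs (4.35-fold lower, log2 -2.12, SE 0.07, adjusted p = 2.51e-09, median-ratio log2 -1.33). No LPS library came near a PBS library. *Egr2* went from 8.45, 9.99 and 8.88 FPKM to 2.02, 1.71 and 1.83 (4.71-fold lower, log2 -2.24, SE 0.11, adjusted p = 4.65e-08, median-ratio log2 -1.46). *Egr1* went from 15.3, 17.5 and 15.6 FPKM to 6.79, 6.09 and 6.07 (log2 -1.34, SE 0.08, adjusted p = 1.98e-07).

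*Jun* went from 46.4, 49.4 and 50.3 FPKM to 21.8, 19.4 and 19.0 (log2 -1.28, SE 0.06, adjusted p = 6.21e-08). *Junb* ran the other way, from 29.2, 32.3 and 32.6 FPKM to 139, 129 and 134 (4.26-fold, log2 2.09, SE 0.06, adjusted p = 1.93e-09, median-ratio log2 2.89). Resting BMDMs thus held more *Jun* than *Junb* per exon length, and LPS-treated BMDMs more *Junb* than *Jun*. *Atf3* went from 134, 135 and 135 FPKM to 273, 264 and 264 (1.98-fold, log2 0.99, SE 0.04, adjusted p = 8.45e-09) and *Ier3* from 10.4, 9.09 and 10.3 to 26.5, 27.1 and 28.3 (log2 1.45, SE 0.06, adjusted p = 1.75e-08). *Ier2* read 12.3, 13.7 and 12.5 FPKM with PBS and 18.2, 15.3 and 17.1 with LPS (log2 0.39, SE 0.07, adjusted p = 0.00123), under 1.5-fold on the FPKM scale. *Fosl2*, from 5.76, 5.60 and 6.37 FPKM to 2.19, 2.49 and 2.78, and *Fosb*, from 0.25, 0.40 and 0.23 to 0.07, 0.08 and 0.08, were lower in every LPS library than in any PBS library.

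In knockout BMDMs all 10 genes passed, the same 6 downward and *Junb*, *Ier3*, *Atf3* and *Ier2* upward, where 38.9% of all genes passed, 8.02% upward and 30.9% downward. All 10 genes had libraries apart, against 52.1% of all genes. *Fos* went from 24.9, 27.9 and 25.7 FPKM to 5.55, 5.40 and 5.79 (log2 -2.21, SE 0.07) and *Jun* from 49.5, 48.3 and 49.5 to 13.6, 12.4 and 13.1 (3.75-fold lower, log2 -1.91, SE 0.06, median-ratio log2 -1.22). *Jun* here fell past 1.5-fold on both scales. *Ier3* went from 12.2, 11.9 and 12.6 FPKM to 43.0, 45.8 and 43.5 (3.59-fold, log2 1.84, SE 0.06) and *Ier2* from 13.7, 12.9 and 13.9 to 22.9, 21.3 and 23.0 (0.73, SE 0.07). In both the LPS level was higher than in wild-type BMDMs with LPS. *Junb* went from 33.3, 32.8 and 33.6 FPKM to 138, 130.04 and 149 (log2 2.06, SE 0.06) and *Atf3* from 124 in each library to 247, 244 and 251 (0.99, SE 0.04). *Egr1* went from 14.6, 15.6 and 15.5 FPKM to 6.61, 6.14 and 7.20 (log2 -1.19, SE 0.08, median-ratio -0.50) and *Egr2* from 9.01, 8.68 and 9.15 to 2.78, 2.22 and 2.96 (-1.73, SE 0.11, median-ratio -1.05). With median-ratio scaling 7 of the 10 genes were called, since *Fosb*, *Fosl2* and *Egr1* came within 1.5-fold. Over all genes 7996 were called with it.

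**Figure D2:**
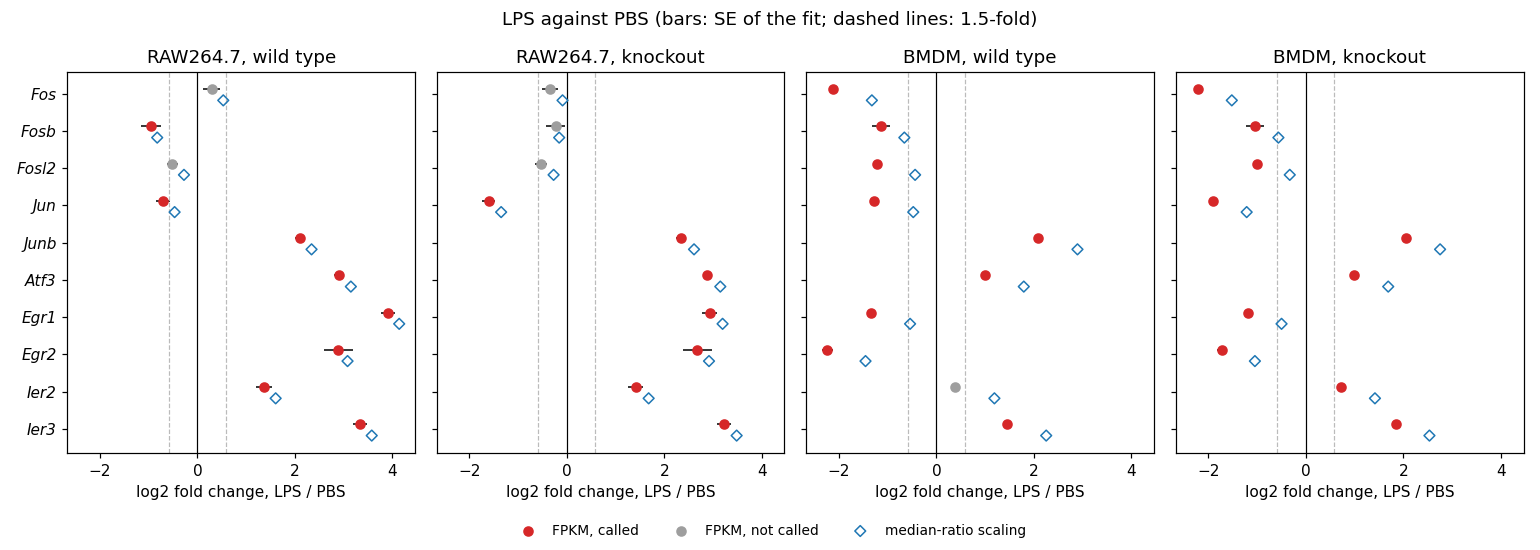
Log2 fold change of LPS against PBS for the 10 genes in the 4 backgrounds (circles, FPKM scale with the SE of the fit, red where called), with median-ratio scaling as open diamonds and 1.5-fold as dashed lines. On the FPKM scale *Egr1* and *Egr2* lie to the right in both RAW264.7 panels, at 2.68 to 3.91, and to the left in both BMDM panels, at -1.19 to -2.24. With median-ratio scaling *Egr1* in BMDMs lies within 1.5-fold. *Junb*, *Atf3* and *Ier3* lie to the right in all 4.

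*Egr1* and *Egr2* therefore moved in opposite directions in RAW264.7 and BMDMs, in both genotypes. With median-ratio scaling the fall of *Egr1* in BMDMs was within 1.5-fold, at -0.54 in wild type and -0.50 in knockout. A test across cell types was not run, because each cell type has its own table and was fitted separately. The order of the levels differed too. With PBS *Egr1* was at 16.1 FPKM in wild-type BMDMs and at 1.42 in wild-type RAW264.7, and with LPS at 6.32 and 22.5, so resting BMDMs began at a level that RAW264.7 cells passed after LPS. The cell types also differ in growth, since BMDMs grew with L929 supernatant, and this cannot be told apart from the cell type.

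Shares within a family do not depend on library scaling. In the JUN family they moved in the same sense in both cell types. Of the summed FPKM of *Jun*, *Junb* and *Jund*, *Junb* made up 47.2% ± 1.35 (SD, n = 3) in wild-type RAW264.7 with PBS and 74.2% ± 0.0495 with LPS, and 29.6% ± 0.966 and 75.0% ± 0.647 in wild-type BMDMs. The share of *Jun* went from 18.8% ± 1.47 to 4.20% ± 0.208 in wild-type RAW264.7 and from 45.9% ± 0.671 to 11.2% ± 0.459 in wild-type BMDMs. With LPS the libraries labelled knockout had the lower *Jun* share in both cell types, 0.930% ± 0.203 in RAW264.7 and 6.99% ± 0.306 in BMDMs. *Olfml3* itself ran opposite ways in these comparisons, at a log2 fold change of 6.10 in RAW264.7 and -1.75 in BMDMs. The ratio of *Junb* to *Jun* was 17.7 ± 0.860 in wild-type and 90.8 ± 22.1 in knockout-labelled RAW264.7 with LPS, and 6.69 ± 0.327 and 10.7 ± 0.622 in BMDMs. *Jund*, which is constitutive in most cells, held between 13.8% and 34.0% in each group.

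In the FOS family they did not, since *Fosl2* went from 37.5% to 19.6% in wild-type RAW264.7 and from 16.5% to 26.8% in wild-type BMDMs. *Fos* itself led every BMDM group, at 82.4% ± 0.869 of the summed FPKM in wild type with PBS and 72.4% ± 2.21 with LPS. *Fosl1*, which encodes FRA-1, took a larger part in LPS-treated RAW264.7 cells, 27.9% ± 0.286 in wild type and 42.1% ± 0.733 in knockout-labelled libraries, against 4.39% ± 1.93 and 4.80% ± 0.431 with PBS. In BMDMs *Fosl1* averaged at most 0.659% of the family in any group. The summed level of the 4 FOS genes was 35.9 FPKM ± 2.20 with PBS and 9.28 ± 0.511 with LPS in wild-type BMDMs, and 17.3 ± 0.111 and 23.1 ± 1.08 in wild-type RAW264.7.

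**Figure D3:**
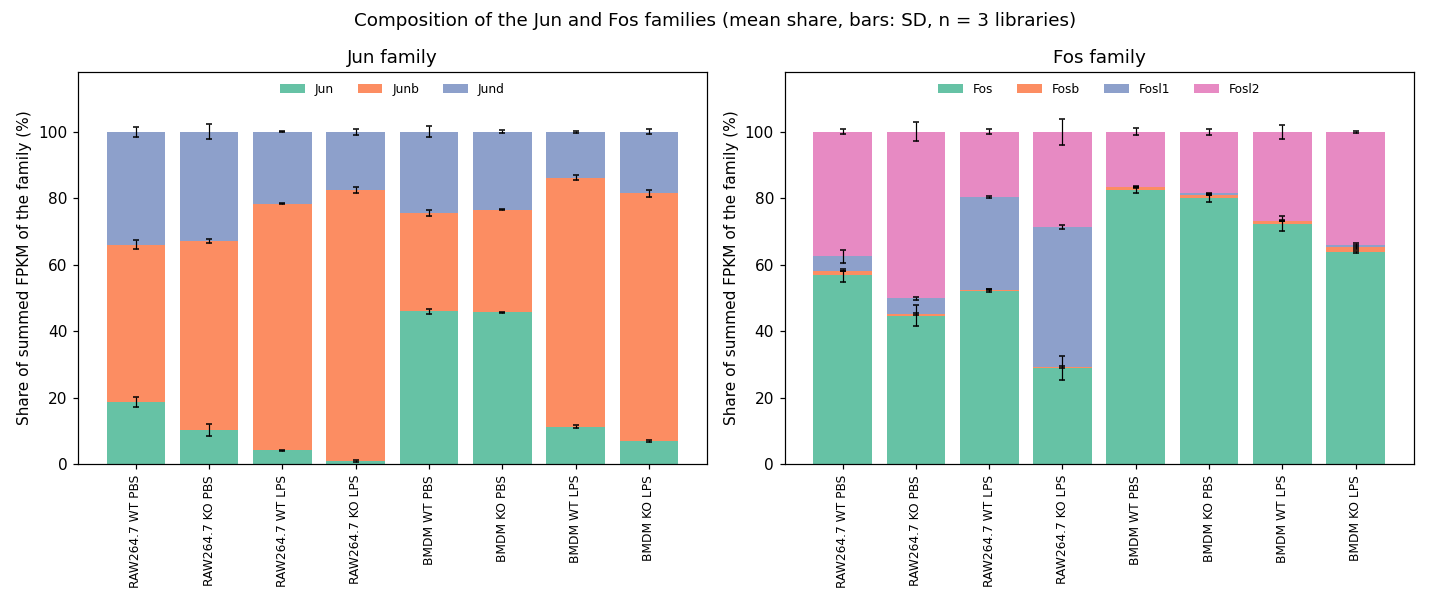
Mean share of each gene in the summed FPKM of the Jun family (left) and the Fos family (right) in the 8 groups, in percent, with SD over 3 libraries. *Junb* takes 74.2% to 81.5% of its family in all 4 LPS groups, and *Fosl1* is visible in RAW264.7 only.

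The genotype comparison was made to ask whether these genes differed between knockout and wild type before or after LPS. In RAW264.7 *Olfml3* itself was higher in the libraries labelled knockout. In RAW264.7 with PBS 5 of the 10 genes differed, 4 lower in the libraries labelled knockout (*Ier3*, *Jun*, *Fos* and *Fosb*) and 1 higher (*Egr1*), where 8.55% of all genes passed, 4.79% higher and 3.77% lower. The genotypes did not overlap for 9 of 10 genes, against 24.1% of all genes. *Ier3* was at 10.2, 7.39 and 6.67 FPKM in the knockout-labelled libraries and 60.6, 51.5 and 52.3 in wild type (6.80-fold lower, log2 -2.77, SE 0.14, adjusted p = 2.66e-06). *Jun* was at 6.34, 6.53 and 6.35 FPKM against 16.1, 18.6 and 19.6 (2.79-fold lower, log2 -1.48, SE 0.14, adjusted p = 0.000159). *Fos* was at 3.56, 3.87 and 4.90 FPKM against 9.93, 9.46 and 10.1 (2.38-fold lower, log2 -1.25, SE 0.17, adjusted p = 0.00145). In these 3 genes no library of one genotype came within the range of the other.

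*Egr1* differed the other way, at 3.00, 3.12 and 4.33 FPKM against 1.55, 1.57 and 1.14 (2.35-fold higher, log2 1.23, SE 0.15, adjusted p = 0.000825). *Egr2*, at 0.68, 0.64 and 0.39 FPKM against 0.35, 0.29 and 0.09, did not pass (log2 1.03, SE 0.30, adjusted p = 0.0527) but did with edgeR on counts (1.17, adjusted p = 0.0176). *Fosb*, at 2 to 7 counts against 19 to 21, passed (log2 -1.20, SE 0.20, adjusted p = 0.00443) and was lost with a pseudocount of 0.01 (adjusted p = 0.0666). *Fosl2* (log2 -0.50), *Atf3* (-0.39) and *Junb* (-0.34) were within 1.5-fold. *Ier2* (log2 -0.41, adjusted p = 0.114) turned on replicate 1 of the knockout-labelled group, which was at 26.1 FPKM against 16.9 and 16.3 in the others and 24.8 to 26.6 in wild type, and without that library *Ier2* passed at -0.63 (adjusted p = 0.000113). Without it 6 of the 10 genes and 5523 genes in all were called, in place of 5 and 2287, and *Ier3* was at -2.94, *Jun* at -1.47, *Fos* at -1.16 and *Egr1* at 1.33.

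With LPS 3 of the 10 genes differed in RAW264.7, all lower in the libraries labelled knockout, where 17.3% of all genes passed, 9.73% higher and 7.6% lower. Here too 9 of 10 genes had libraries apart, against 40.2% of all genes. *Ier3* was at 77.9, 74.3 and 72.2 FPKM against 560, 535 and 564 (7.39-fold lower, log2 -2.88, SE 0.14, adjusted p = 2.08e-06). The LPS libraries labelled knockout thus stood nearer to the wild-type PBS libraries, at 51.5 to 60.6 FPKM, than to wild type with LPS. *Jun* was at 1.59, 2.17 and 2.43 FPKM against 10.5, 11.0 and 11.5 (5.20-fold lower, log2 -2.38, SE 0.14, adjusted p = 6.38e-06). *Fos* was at 2.48, 3.16 and 4.06 FPKM against 12.7, 11.99 and 11.5 (3.72-fold lower, log2 -1.89, SE 0.17, adjusted p = 7.75e-05). Among the 10 genes, the AP-1 partners that LPS raised lay closer together. *Junb* was at 185, 178 and 181 FPKM against 190, 200.3 and 193 (log2 -0.10, adjusted p = 0.549). *Atf3* was at 86.2, 85.7 and 83.1 FPKM against 116, 112 and 111 (log2 -0.41, adjusted p = 0.0154). Of 13 other AP-1 family genes 1 was called higher and 3 lower. Among the lower were *Batf* (log2 -2.27) and *Batf2* (-1.34), which LPS raised in wild type. *Egr1* was at 26.8, 27.0 and 26.8 FPKM against 22.9, 22.5 and 22.1 (log2 0.25, SE 0.15, adjusted p = 0.285), and *Egr2* at 4.00, 4.02 and 4.28 against 2.09, 2.22 and 2.55 (0.82, SE 0.30, adjusted p = 0.0734), which edgeR called (0.81, adjusted p = 0.00865). *Fosl2* (-0.52) and *Ier2* (-0.37) were within 1.5-fold, and *Fosb* had at most 7 counts in any library.

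Beside these differences, the summed macrophage markers were at 1054 to 1286 FPKM in the knockout-labelled RAW264.7 libraries with PBS against 2914 to 2945 in wild type, and at 829 to 862 against 2729 to 2870 with LPS. In every RAW264.7 group 6 of the 7 macrophage markers were at a mean of 1 FPKM or more. Markers of other cell types summed to at most 0.28 FPKM per list in this cell line. The part of the macrophage markers in the results was not tested. Both the lower *Ier3*, *Jun* and *Fos* and these markers belong to lines grown from single-cell clones, so clone and genotype cannot be told apart.

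The interaction asks whether the LPS change itself differed between genotypes. In RAW264.7 limma called 0 of the 10 genes, where 1.95% of all genes passed, 0.905% upward and 1.04% downward. At an unadjusted p under 0.05 there were 4 of the 10, with no share of all genes at that threshold at hand. Closest were *Egr1* (log2 -0.98, SE 0.22, adjusted p = 0.0556), whose rise was smaller in the knockout-labelled libraries, and *Jun* (-0.90, SE 0.20, adjusted p = 0.057), whose fall was steeper. Called by edgeR and DESeq2 were these 2, with edgeR at -1.02 for *Egr1* (adjusted p = 0.00974) and -0.90 for *Jun* (adjusted p = 0.0111). For *Ier3* the interaction was -0.12 (SE 0.20, adjusted p = 0.872), between genotype differences of -2.77 with PBS and -2.88 with LPS.

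BMDMs with PBS showed little. By limma 0 of the 10 genes passed, as by edgeR and DESeq2, where 1.82% of all genes did, 0.901% higher and 0.916% lower. At an unadjusted p under 0.05 there were 3 of the 10, with no share of all genes at that threshold at hand. Libraries were apart for 3 genes, against 20.5% of all genes. *Jun*, at 49.5, 48.3 and 49.5 FPKM in knockout and 46.4, 49.4 and 50.3 in wild type (log2 0.01, SE 0.06), and *Fos*, at 24.9, 27.9 and 25.7 against 27.3, 30.7 and 30.7 (-0.18, SE 0.07, adjusted p = 0.255), did not show the gaps of the RAW264.7 lines. *Ier3* was at 12.2, 11.9 and 12.6 FPKM against 10.4, 9.09 and 10.3 (log2 0.30, SE 0.06, adjusted p = 0.0269), a small difference upward without overlap of the libraries.

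With LPS 2 of the 10 genes differed in BMDMs, where 4.76% of all genes passed, 3.23% higher and 1.53% lower. For 7 of 10 genes the genotypes did not overlap, against 26.7% of all genes. *Jun* was at 13.6, 12.4 and 13.1 FPKM in knockout and 21.8, 19.4 and 19.0 in wild type (1.53-fold lower, log2 -0.62, SE 0.06, adjusted p = 0.00022). All knockout libraries were below all wild-type libraries, and *Jun* also passed with median-ratio scaling (-0.77, adjusted p = 5.56e-05) and edgeR (-0.77, adjusted p = 2.20e-12). It fell just under 1.5-fold without replicate 1 of the wild-type LPS group (-0.55, adjusted p = 0.000481) or replicate 2 of the knockout LPS group (-0.58, adjusted p = 0.00136). *Ier3* was at 43.0, 45.8 and 43.5 FPKM against 26.5, 27.1 and 28.3 (1.61-fold higher, log2 0.69, SE 0.06, adjusted p = 9.61e-05). This was the opposite side from RAW264.7, where *Olfml3* ran against the label. With median-ratio scaling *Ier3* came under 1.5-fold (0.53, adjusted p = 0.000411). The median difference between the scales was 0.15 here, and median-ratio scaling moved the share of higher calls among all genes from 67.9% to 43.3%.

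*Egr2* was at 2.78, 2.22 and 2.96 FPKM against 2.02, 1.71 and 1.83 (log2 0.49, SE 0.11, adjusted p = 0.0122), *Ier2* at 22.9, 21.3 and 23.0 against 18.2, 15.3 and 17.1 (0.41, SE 0.07, adjusted p = 0.0044) and *Fos* at 5.55, 5.40 and 5.79 against 6.74, 6.40 and 6.99 (-0.26, SE 0.07, adjusted p = 0.0254). These 3 genes had libraries apart but differences under 1.5-fold. *Junb* (0.05, SE 0.06), *Egr1* (0.07, SE 0.08), *Atf3* (-0.11, SE 0.04), *Fosl2* (0.25, SE 0.09) and *Fosb* (0.34, SE 0.18) did not pass, and those of *Junb* and *Egr1* turned negative with median-ratio scaling.

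*Jun* was also the 1 gene of the 10 called for the interaction in BMDMs (log2 -0.63, SE 0.09, adjusted p = 0.00389), where 2.93% of all genes passed, 1.91% upward and 1.02% downward. Its log2 change with LPS was -1.28 in wild type and -1.91 in knockout, from levels that overlapped with PBS. With edgeR the interaction was -0.74 (adjusted p = 4.48e-09), and without replicate 1 of the wild-type LPS group it was -0.57 (adjusted p = 0.00437), just under 1.5-fold. In RAW264.7 the *Jun* interaction had the same sign and came from libraries that already differed with PBS, and in which *Olfml3* ran against the label. *Ier3* (0.39, SE 0.09, adjusted p = 0.029) and *Egr2* (0.51, SE 0.15, adjusted p = 0.0939) were not called for it.

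**Figure D4:**
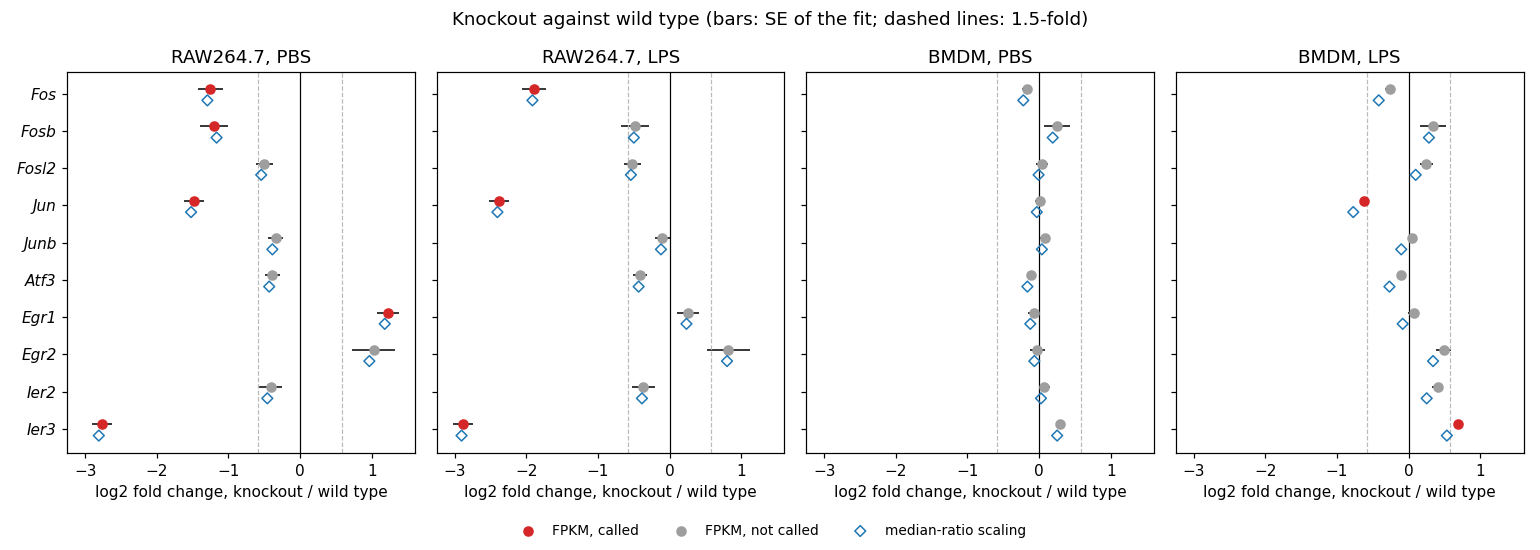
Log2 fold change of knockout against wild type for the 10 genes, in RAW264.7 (labelled knockout) and BMDMs with PBS and with LPS (circles with the SE of the fit, red where called, open diamonds for median-ratio scaling). *Jun* lies left of the 1.5-fold line in both RAW264.7 panels and in BMDMs with LPS, while *Ier3* lies at -2.77 and -2.88 in RAW264.7 and at 0.30 and 0.69 in BMDMs.

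Other genes of the pathway were read from lists of known members, and their counts stand beside 5.8% of all genes upward and 12.5% downward with LPS in wild-type RAW264.7 and 7.94% and 32.5% in wild-type BMDMs. Of 13 other AP-1 family genes 7 rose and 1 fell with LPS in wild-type RAW264.7, led by *Batf* (from 0 listed in every library to 1.79 FPKM) and *Batf2* (log2 3.83, SE 0.20). In wild-type BMDMs 5 rose, led by *Batf2* (5.08, SE 0.09) and *Batf* (4.25, SE 0.17), and 5 fell, *Maf* (-1.54, SE 0.04) among them. In BMDMs edgeR called 7 higher and 3 lower. Over all genes edgeR called 7865 in wild-type BMDMs, 44.8% of them higher, where limma called 10899, 19.6% higher. In wild-type RAW264.7 edgeR called 4252, 46.9% higher, where limma called 4899, 31.7% higher. The median log2 fold change of this list was 0.79 in wild-type RAW264.7 and -0.07 in wild-type BMDMs, against -0.05 and -0.30 over all genes tested. Among the EGR relatives, *Egr3* followed *Egr1* and *Egr2*, up with LPS in wild-type RAW264.7 (1.65, SE 0.18) and down in wild-type BMDMs (-2.59, SE 0.09). *Nab2*, a co-repressor of EGR factors, fell in both (-0.62, SE 0.09, and -2.32, SE 0.07), and with edgeR its RAW264.7 call was lost.

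Of 24 other immediate-early genes 13 rose and 3 fell in wild-type RAW264.7 with LPS, with *Myc* (log2 6.22, SE 0.12) and *Pim1* (4.16, SE 0.13) at the top and *Bhlhe40* (-0.73) and *Nr4a1* (-0.72) at the bottom. In wild-type BMDMs 9 rose and 10 fell, with *Pim1* (4.03, SE 0.07) and *Nr4a3* (3.86, SE 0.21) at the top and *Ier5l* (-3.73) and *Nr4a1* (-3.34) at the bottom, and edgeR gave 11 and 7. The list's median was 0.82 in wild-type RAW264.7 and -0.22 in wild-type BMDMs. Of 14 genes commonly given as AP-1 or EGR1 targets 11 rose and 3 fell in wild-type RAW264.7 and 10 rose and 4 fell in wild-type BMDMs, with *Il6* among the leading rises in both (7.58, SE 0.14, and 9.30, SE 0.21) and *Plau* and *Ccnd1*, urokinase and cyclin D1, among the falls. Its median was 4.13 and 3.29. *Map3k8*, the kinase that links TLR4 to ERK, rose in wild-type RAW264.7 (1.74, SE 0.19) and BMDMs (2.06, SE 0.05), 1 of 2 and 1 of 3 rises among 14 genes of the MAP kinase cascade, of which 5 and 8 fell, and 3 and 3 with edgeR. Of 9 SRF, TCF and CREB factors 1 rose and 2 fell in RAW264.7 and 1 rose and 7 fell in BMDMs, where edgeR gave 1 and 3. The medians were -0.19 and -0.64 for the cascade and -0.04 and -1.03 for the factors.

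Between genotypes, 4.79% of all genes passed upward and 3.77% downward in PBS-treated RAW264.7, 9.73% and 7.6% in LPS-treated RAW264.7, and 3.23% and 1.53% in LPS-treated BMDMs. In RAW264.7, 2 of the 13 other AP-1 genes were lower with PBS in the libraries labelled knockout, *Jund* (log2 -0.66, SE 0.14) among them, and with LPS 1 was higher and 3 were lower, with Atf7 (1.17) and *Batf* (-2.27) at the ends. In RAW264.7 with PBS 1 of 24 other immediate-early genes was higher and 8 were lower in the libraries labelled knockout, *Arc* (log2 -2.21, SE 0.20) and *Gadd45b* (-1.12, SE 0.14) the farthest. With LPS 5 were higher, led by *Rgs1* (0.89) and *Myc* (0.75), and 5 lower, led by *Arc* (-2.60) and *Trib1* (-1.63). Of the 14 targets 5 were lower with PBS and 6 lower and 1 higher with LPS, *Timp1* (-6.06 and -3.29) among the lower in both and *Il6* (2.01, SE 0.14) the higher. In knockout BMDMs with LPS 5 of the 24 were higher, led by *Myc* (1.19, SE 0.07), and 4 lower, led by *Gem* (-1.39, SE 0.13), *Nab2* was higher (1.27, SE 0.07), and of the targets 4 were higher, *Il1b* (1.15, SE 0.11) among them, and 1 lower.

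Since immediate-early genes respond to handling, 11 heat shock and handling stress genes were summed. Their range was 1292 to 1342 FPKM in wild-type and 1042 to 1248 in knockout-labelled RAW264.7 with PBS, 1516 to 1541 and 1507 to 1537 with LPS, 843 to 863 and 897 to 915 in BMDMs with PBS and 826 to 882 and 889 to 942 with LPS. Between genotypes 1 of them was called lower in RAW264.7 labelled knockout in both treatments, *Hspa1b* (log2 -2.67, SE 0.28, and -1.90, SE 0.28). There 3.77% of all genes were lower with PBS and 7.6% with LPS. In knockout BMDMs with PBS 1 was lower, *Ddit3* (-0.63, SE 0.13), where 0.916% of all genes were. With LPS in wild-type RAW264.7, 0 of the 11 rose and 1 fell, beside 5.8% and 12.5% of all genes, and edgeR gave 2 and 0. In wild-type BMDMs 2 rose and 5 fell, beside 7.94% and 32.5%, and edgeR gave 6 and 2. Their part in the results was not tested.

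Across the 12 libraries of a cell type, which fall into 4 groups and share their scaling, the gene nearest in pattern was sought among those with a mean of 1 FPKM or more. In RAW264.7 it was *Ptgir* for *Fos* (Pearson's r 0.984), *Capn2* for *Jun* (0.988), *Il27* for *Junb* (0.999), *Cd274* for *Egr1* (0.995), *Egr3* for *Egr2* (0.983) and *Tmem106a* for *Ier3* (0.997). The others there were *Chst1* for *Fosb*, *Slc25a24* for *Fosl2*, *Pdgfb* for *Atf3* and *Sap30* for *Ier2*. In BMDMs it was *B4galt6* for *Fos*, *Slc66a2* for *Jun*, *Ehd1* for *Junb*, *Myd88* for *Atf3*, *Selplg* for *Egr1*, *Twf2* for *Egr2* and *Eif4g2* for *Ier3*, each at r of 0.997 or more, with *Trav13n-4* for *Fosb*, *Micall1* for *Fosl2* and *Ufm1* for *Ier2*. Within the 10 genes, *Junb* and *Atf3* ran together in both cell types (0.994 and 0.988), while *Fos* and *Junb* were at 0.059 in RAW264.7 and -0.992 in BMDMs.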

How the data were processed

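Poly(A) RNA of 24 libraries was sequenced in pairs of 150 bases, and samples were grouped by title, because the genotype tag contradicts it in 12 of 24 samples. The authors deposited raw counts per gene and FPKM made from counts, exonic length and library total, which could be rebuilt within 1% for 99.9% of RAW264.7 and 99.5% of BMDM values over 50 counts. No aligner or counter is named in the sources used here. The submitters' processing notes list mm10, but the tables' gene coordinates equal GENCODE M21 (GRCm38) for 0 of the 10 genes, so positions come from RefSeq on GRCm38. FPKM makes genes comparable per length, and it divides by a total that a few strongly induced genes can fill.

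limma 3.58.1 fitted 4 group means per cell type on log2(FPKM + 0.1), with genes above 0 in at least 1 library and Benjamini-Hochberg adjustment over all of them. A fold change on this scale understates low genes. The study's methods name limma and both thresholds. Alternatives were pseudocounts of 0.01 and 1, a filter of 1 FPKM in 3 libraries, TPM, median-ratio scaling, only the compared groups, a replicate block, calls by adjusted p without a fold, leaving out single libraries, edgeR 4.0.16 (quasi-likelihood, with and without a count filter) and DESeq2 1.42.0, under R 4.3.3, and the scripts were tested on simulated data. The members and lists were chosen with earlier results of these data known. Named are the 10 genes, *Olfml3*, the nearest gene per member and, per list, the 2 largest called changes in each direction among genes at 1 FPKM or more. Annotation columns were not used, and 1 gene that this rule names is not reported here.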

Additional observations from a re-analysis of the deposited data

Results flagged for a closer look

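The fall of *Jun* with LPS differed between genotypes in BMDMs (interaction log2 -0.63, adjusted p = 0.00389 in limma). The other results here are fold changes of opposite sign in the 2 cell types, with no overlap between the compared libraries, and the difference between cell types was not tested. Not called among them was *Fos* with LPS in wild-type RAW264.7 (adjusted p = 0.308 in limma and 0.0104 in edgeR, under 1.5-fold in both). By limma, *Junb* in RAW264.7 (0.0635) and BMDMs (0.602) and *Ier3* in BMDMs with PBS (0.0269, under 1.5-fold) were not called. Nor were *Fosl2* in RAW264.7 (0.0126, under 1.5-fold) and BMDMs (0.0796) and *Ier2* in RAW264.7 (0.127) and BMDMs (0.0044, under 1.5-fold). With LPS in wild type these were *Fos* (0.29 in RAW264.7 and -2.12 in BMDMs), *Egr1* (3.91 and -1.34) and *Egr2* (2.89 and -2.24), all as log2 fold changes. With LPS in knockout they were *Egr1* (2.93 and -1.19) and *Egr2* (2.68 and -1.73). The genotype comparisons follow the labels. In RAW264.7 *Olfml3* itself was at log2 fold changes of 1.96 with PBS and 6.10 with LPS, and in BMDMs at -2.58 and -1.75. The 2 cell types therefore do not compare the same change of *Olfml3*. Between genotypes with PBS the results were *Junb* (-0.34 in RAW264.7 labelled knockout and 0.084 in BMDMs) and *Ier3* (-2.77 and 0.30). Between genotypes with LPS they were *Fosl2* (-0.52 and 0.25), *Ier2* (-0.37 and 0.41) and *Ier3* (-2.88 and 0.69).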

How the results depend on the processing

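The RAW264.7 interaction, with 0 genes called, gave 1 with a pseudocount of 1 and 2 with a filter of 1 FPKM in 3 libraries, edgeR, edgeR without a count filter and DESeq2, and 0 to 1 with a library left out, 1 without replicate 1 of the knockout-labelled PBS group or replicate 1 or 3 of the knockout-labelled LPS group. Knockout against wild type in RAW264.7 with LPS, with 3, gave 5 with the adjusted p alone and with edgeR without a count filter. In BMDMs with PBS, with 0, the adjusted p alone gave 1. In BMDMs with LPS, with 2, a pseudocount of 1, median-ratio scaling, edgeR with and without a count filter and DESeq2 gave 1 and the adjusted p alone 5, and 1 to 2 were called with a library left out. The BMDM interaction, with 1, gave 2 with the adjusted p alone and 0 to 2 with a library left out, 0 without wild-type LPS replicate 1 and 2 without knockout LPS replicate 2. The cause was not tested. Signs reversed for values near 0. *Junb* in RAW264.7 with LPS became 0.13 with TPM. In BMDMs with PBS, median-ratio scaling, edgeR, edgeR without a count filter and DESeq2 gave -0.0066, -0.0063, -0.0015 and -0.0089 for *Fosl2* and -0.032, -0.030, -0.025 and -0.033 for *Jun*, while leaving out a library gave -0.021 to 0.037 for *Jun* and -0.074 to 0.046 for *Egr2*. With LPS they gave -0.10, -0.090, -0.083 and -0.10 for *Junb* and -0.082, -0.076, -0.069 and -0.086 for *Egr1*. Over all genes, knockout against wild type in RAW264.7 with PBS had 2287 called, 1474 with a pseudocount of 1, 997 in a fit of the compared groups alone and 1288 to 5523 with a library left out, the last without the library that stood apart. With a pseudocount of 1 the counts went from 4635 to 3054 in RAW264.7 with LPS, from 490 to 256 in BMDMs with PBS, from 1285 to 439 in BMDMs with LPS and from 789 to 402 for the BMDM interaction, and with the adjusted p alone these 3 BMDM counts were 1116, 4804 and 1762. The RAW264.7 interaction had 521, 339 with TPM and 400 to 904 with a library left out.

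With the replicate number as a block the counts of the 10 genes were 8, 7, 5, 3 and 0 in RAW264.7 and 9, 10, 0, 2 and 1 in BMDMs, in the order of the comparisons, and no call changed. Same-numbered libraries correlated at -0.058 to 0.084 in their deviations from the group means, so the numbers do not pair them. At this depth *Fosb*, with at most 54 counts in a library, limits what can be said of it.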
